A study of Homo sapiens with 4 samples.

Results

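The TRIM genes encode tripartite-motif proteins, which carry a RING finger, 1 or more B-box zinc fingers and a coiled coil, followed by a C-terminal domain that differs between members. Here the family was taken as the gene symbols made of TRIM, a number and at most 1 further letter, which 75 of the 61228 gene symbols in the count tables fit. Of these, 45 had 10 or more counts in at least 2 of the 4 libraries and are described below, and all 45 also entered the test across genes. The other 30 stayed under that count minimum, and 15 of them had 0 counts in each library, which allows a level of up to 0.0335 to 0.0458 CPM (counts scaled to a common library size) per library. The rule sets 6 genes known to be induced by interferon (TRIM5, TRIM14, TRIM21, TRIM22, TRIM25 and TRIM38) against the remaining 39.

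The libraries came from H1792, an established human lung cancer line labelled as wild type, kept for 96 h with ACBI1 or, in the control group, with the solvent DMSO. The degrader ACBI1 belongs to the PROTACs and brings the VHL ubiquitin ligase to SMARCA2, SMARCA4 and PBRM1, chromatin remodelling proteins of SWI/SNF complexes, so that they are degraded. The labels give the dose of ACBI1 as 1 mM, a unit that the counts cannot check. Each group held 2 libraries, DMSO replicates 1 and 2 and ACBI1 replicates 1 and 2, and nothing in the labels says whether replicates were separate cultures, so p-values measure the spread between these libraries, which may be technical.

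Most TRIM proteins act as E3 ubiquitin ligases: the RING finger binds an E2 enzyme loaded with ubiquitin, and the C-terminal domain picks the substrate. Several of them regulate antiviral signalling, for instance through the RNA sensor RIG-I or the adaptor MAVS, and some are themselves switched on by interferon. Members without a RING, such as TRIM14, TRIM16, TRIM16L, TRIM44 and TRIM66, lack this RING-based mechanism, so the name of ubiquitin ligases does not hold for each of the 45.

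Gene counts summed to between 64281850 and 86010100 per library, and the 75 TRIM symbols held 0.230% to 0.267% of them. The degrader acts on proteins, so the transcripts of its targets do not check the treatment; SMARCA4 (adjusted p 0.0583), SMARCA2 (adjusted p 0.163) and PBRM1 (adjusted p 0.734) did not pass edgeR's test. Of 5 lung epithelial markers, NKX2-1 and SFTPA1 had 0 counts in each library and none reached 10 counts in all of them, so the lung label was not matched by lung lineage transcripts. The summed level of 6 epithelial markers was 982 and 1035 CPM in the DMSO libraries and 202 to 323 CPM in the ACBI1 libraries. In edgeR's test 4 of the 6 fell, against 10.6% of all genes tested. These 4 were keratins, and KRT7 alone was at 678 and 680 CPM in the DMSO libraries. EPCAM had a positive fitted log2 change of 1.32 that was not called (edgeR adjusted p 0.179), and CDH1 was too low to be tested. For 5 fibroblast markers the sum was 991 to 1941 CPM against 87.5 to 270 CPM, for 4 endothelial markers 12.8 to 49.0 CPM against 0.107 to 0.123 CPM, and for 6 immune cell markers 0.381 to 0.876 CPM against 0.268 to 0.381 CPM. The fibroblast sum with DMSO was mostly the collagens COL1A1 (324 and 693 CPM) and COL1A2 (646 and 1189 CPM). Of these 5 markers edgeR called 3 lower (COL1A2, DCN and LUM), against 10.6% of all genes, and DCN passed the filter through the DMSO libraries alone. The endothelial sum with DMSO was almost all PECAM1, at 12.2 CPM in replicate 1 and 48.1 CPM in replicate 2. CDH5, VWF and KDR were at no more than 0.528 CPM in any library. Among the immune genes CD3E had 0 counts in each library and PTPRC no more than 2. CD14 was the highest of the 6 in each library, with 17 and 47 counts with DMSO and 10 and 15 with ACBI1. It was not called (edgeR adjusted p 0.237). The part of the marker shifts in the TRIM values was not tested. The labels name a cell line and no other cell type. In such bulk libraries fewer cells expressing a marker and less of its RNA per cell cannot be told apart.

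The 5 inducible genes with an entry in the RefSeq promoter table are shown by the 250 bases before their transcription start (GRCh38.p14, 5′ to 3′ on the gene's own strand), because these windows differ in a motif through which interferon acts. Capitals mark matches to the core of the interferon-stimulated response element (ISRE), searched on both strands as GAAA, 2 bases of any kind, and GAAA again. TRIM5 is on chromosome 11 (minus strand, chr11:5685075-5685324), TRIM14 on chromosome 9 (minus strand, chr9:98119223-98119472), TRIM21 on chromosome 11 (minus strand, chr11:4393703-4393952), TRIM25 on chromosome 17 (minus strand, chr17:56914050-56914299) and TRIM38 on chromosome 6 (plus strand, chr6:25962552-25962801).
TRIM5: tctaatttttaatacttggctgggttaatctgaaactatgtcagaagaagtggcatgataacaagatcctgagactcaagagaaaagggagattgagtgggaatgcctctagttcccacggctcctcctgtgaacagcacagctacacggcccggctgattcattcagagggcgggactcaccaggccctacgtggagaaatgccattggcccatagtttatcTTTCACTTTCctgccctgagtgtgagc
TRIM14: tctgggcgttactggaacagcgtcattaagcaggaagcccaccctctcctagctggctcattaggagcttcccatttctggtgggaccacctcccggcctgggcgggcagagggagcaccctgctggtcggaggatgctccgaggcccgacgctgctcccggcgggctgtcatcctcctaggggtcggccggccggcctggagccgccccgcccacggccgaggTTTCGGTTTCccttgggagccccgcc
TRIM21: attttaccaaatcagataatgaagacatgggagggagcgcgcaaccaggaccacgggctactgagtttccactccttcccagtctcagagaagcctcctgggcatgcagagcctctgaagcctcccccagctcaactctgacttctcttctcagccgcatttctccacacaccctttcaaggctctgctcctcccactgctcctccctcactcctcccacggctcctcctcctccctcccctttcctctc
TRIM25: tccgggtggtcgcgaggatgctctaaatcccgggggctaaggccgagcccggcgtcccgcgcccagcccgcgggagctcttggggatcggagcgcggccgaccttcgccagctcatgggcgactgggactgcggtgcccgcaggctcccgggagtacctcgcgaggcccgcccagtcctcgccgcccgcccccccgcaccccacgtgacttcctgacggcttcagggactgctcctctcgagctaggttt
TRIM38: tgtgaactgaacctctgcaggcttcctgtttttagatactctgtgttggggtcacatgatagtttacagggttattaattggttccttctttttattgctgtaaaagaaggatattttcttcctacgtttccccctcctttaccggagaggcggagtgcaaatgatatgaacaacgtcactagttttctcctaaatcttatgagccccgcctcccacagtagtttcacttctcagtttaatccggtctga
The match begins 27 bases before the start of TRIM5 and 26 bases before that of TRIM14, in both cases as the reverse complement. No match was found in the windows of TRIM21, TRIM25 and TRIM38. Of all 35116 promoter windows of this length, 3.02% held a match, and of the 34 reported TRIM genes with a window 7 did (20.6%), namely TRIM2, TRIM5, TRIM14, TRIM16, TRIM26, TRIM44 and TRIM69. The interferon-gamma element GAS, searched as TTCNNNGAA on both strands, was in 6.57% of all windows and in 3 of the 34 (8.82%), namely TRIM3, TRIM15 and TRIM16, and the matches of both motifs in TRIM16 do not overlap. Among the 7 genes with an ISRE match, 1 was called with ACBI1 (TRIM16, lower). Of the 27 without it, 4 were called higher and 3 lower. Of all genes tested, 17.4% were called, 6.75% higher and 10.6% lower.

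Which TRIM transcripts differed between cells with and without the degrader was the question of the comparison. Counts were fitted with edgeR's quasi-likelihood test over all 19159 genes that passed the filter, and a gene is called higher or lower when its Benjamini-Hochberg adjusted p over these genes is under 0.05. Of the 45 TRIM genes, 11 were called (24.4%), against 17.4% of all genes tested. Transcripts of 4 rose (8.89%, against 6.75% of all genes) and those of 7 fell (15.6%, against 10.6%). TRIM9, TRIM47, TRIM65 and TRIM66 were the 4 that rose. The 7 that fell were TRIM16L, TRIM22, TRIM16, TRIM38, TRIM8, TRIM21 and TRIM56. The median log2 change of the 45 was -0.03, next to 0.01 over all genes, and 22 of them had a positive fitted change and 23 a negative one. The 2 ACBI1 libraries lay on one side of both DMSO libraries for 31 of the 45 (68.9%, against 63.2% of all genes), among them the 11 called. The fit rests on few libraries. With either ACBI1 library left out fewer TRIM genes were called, and fewer genes were also called over all genes tested.

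**Figure D1:**
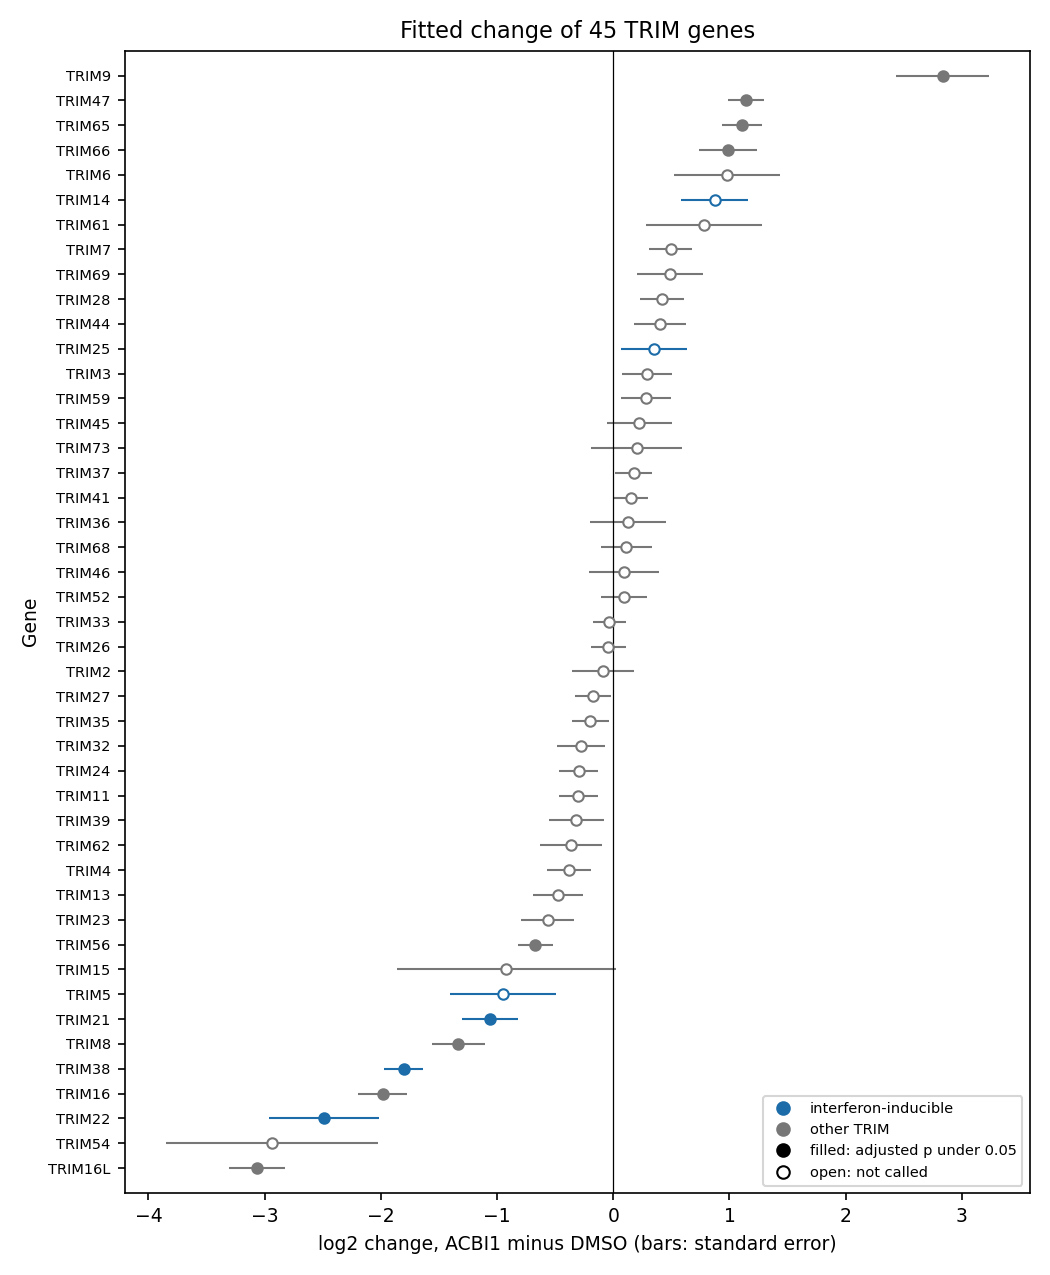
Fitted log2 change (ACBI1 minus DMSO, x axis) of the 45 TRIM genes (y axis, in order of change), with standard errors as bars, filled points for adjusted p under 0.05 and blue points for the 6 interferon-inducible genes. The blue points run from -2.49 for TRIM22 to 0.87 for TRIM14, with 3 filled, and 27 of the open points lie within 0.5 of zero.

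Of the 6 interferon-inducible genes, 3 fell with ACBI1 (50%, against 10.6% of all genes), none rose (against 6.75%) and 3 were not called. Their median log2 change was -1.004, against 0.01 over all genes. TRIM22, 1 of the 3 that fell, met the count minimum through both DMSO libraries and only 1 ACBI1 library. Its part in the 50% and in this median thus rests on the DMSO group and is no separate support. Over the other 39 genes 4 rose and 4 fell (10.3% each), with a median of 0.09. These medians describe the lists and carry no test. The inducible genes did not move as one group: their fitted changes spanned -2.49 to 0.87. Relative to each gene's own DMSO mean, on the scale of log2(CPM + 0.5), the median of the 6 was -0.91 in ACBI1 replicate 1 and -0.68 in ACBI1 replicate 2, while that of the 39 was 0.08 and -0.06. The inducible median was -0.70 without DMSO replicate 2 and -1.29 without ACBI1 replicate 2. Without ACBI1 replicate 1 the median of the 39 turned to -0.06, and with either ACBI1 library left out a single inducible gene, TRIM38, was called.

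TRIM38, a ligase that restrains inflammatory signalling from Toll-like and cytokine receptors, was at 39.1 and 41.7 CPM in DMSO replicates 1 and 2 and at 11.55 and 11.55 CPM in ACBI1 replicates 1 and 2. The groups were wide apart and both sets of replicates close together. This gave 40.4 ± 1.81 against 11.55 ± 0.00313 CPM (SD, n = 2), and the fitted log2 change was -1.81 (SE 0.16, edgeR adjusted p 0.00319), that is a level 3.495-fold lower. The gene lies at chr6:25962802-25991226 (GRCh38, GENCODE 29).

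TRIM21, a cytosolic receptor for antibody-coated particles, was at 9.01 and 8.99 CPM in the DMSO libraries and at 4.31 and 4.33 CPM in the ACBI1 libraries. Each ACBI1 library was thus under both DMSO libraries, with little spread within a group. The log2 change of -1.06 (SE 0.24, edgeR adjusted p 0.0334) lost its call whichever library was left out, with adjusted p of 0.0546 without DMSO replicate 1, 0.0734 without DMSO replicate 2, 0.148 without ACBI1 replicate 1 and 0.124 without ACBI1 replicate 2. The size of the change hardly moved (-1.07 to -1.05), and each of these fits has 1 library in a group, assumed to vary like the others. No exon of another gene overlaps those of TRIM21 (chr11:4384897-4393696).

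TRIM22, an antiviral ligase that interferon induces, was scarce in these cells. Its counts were 46 and 48 with DMSO and 11 and 6 with ACBI1, or 0.565 and 0.667 CPM against 0.123 and 0.0915 CPM. It met the count minimum through both DMSO libraries, with 1 ACBI1 library also above it, so its place among the 45 rests on the DMSO group. The log2 change was -2.49 (SE 0.47, edgeR adjusted p 0.0205), and the call was lost without ACBI1 replicate 1 (adjusted p 0.0825) or ACBI1 replicate 2 (adjusted p 0.0897). Exons of OR56B1 overlap 10.7% of its exonic length.

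TRIM5, a restriction factor that recognises the capsids of incoming retroviruses, did not pass the test. Its levels were 8.95 and 18.6 CPM with DMSO and 4.90 and 9.40 CPM with ACBI1, so the groups overlapped, and in each of them replicate 2 was above replicate 1. The log2 change was -0.95 (SE 0.45, edgeR adjusted p 0.200). Leaving out DMSO replicate 1 made it -1.38 with a call (adjusted p 0.0157), leaving out DMSO replicate 2 made it -0.33 (adjusted p 0.679), and the fit without a filter called it (adjusted p 0.00883, with a range up to 0.225 over the 4 alternatives in scaling, filter or tool).

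TRIM14, an adaptor without a RING that binds MAVS, was the inducible gene with the highest fitted change. It was at 86.3 and 47.9 CPM with DMSO and at 130.2 and 115.4 CPM with ACBI1, so that both ACBI1 libraries were above both DMSO libraries. The spread between the DMSO libraries was wide, and the log2 change of 0.87 (SE 0.29) had an edgeR adjusted p of 0.0888. Without DMSO replicate 1 it was 1.36 and called (adjusted p 0.00144), and without DMSO replicate 2 it was 0.51 (adjusted p 0.204). Of the 4 alternatives in scaling, filter or tool, DESeq2 and the fit without a filter called it higher, and their adjusted p spanned 0.000467 to 0.0857 in all 4.

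TRIM25, the ligase that activates RIG-I and also attaches ISG15, was the most abundant of the 6 per length. Its levels of 226 and 166 CPM with DMSO and 309 and 190 CPM with ACBI1 overlapped. The log2 change of 0.35 (SE 0.28) was not called (edgeR adjusted p 0.436) and was -0.04 without ACBI1 replicate 1 (adjusted p 0.957).

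**Figure D2:**
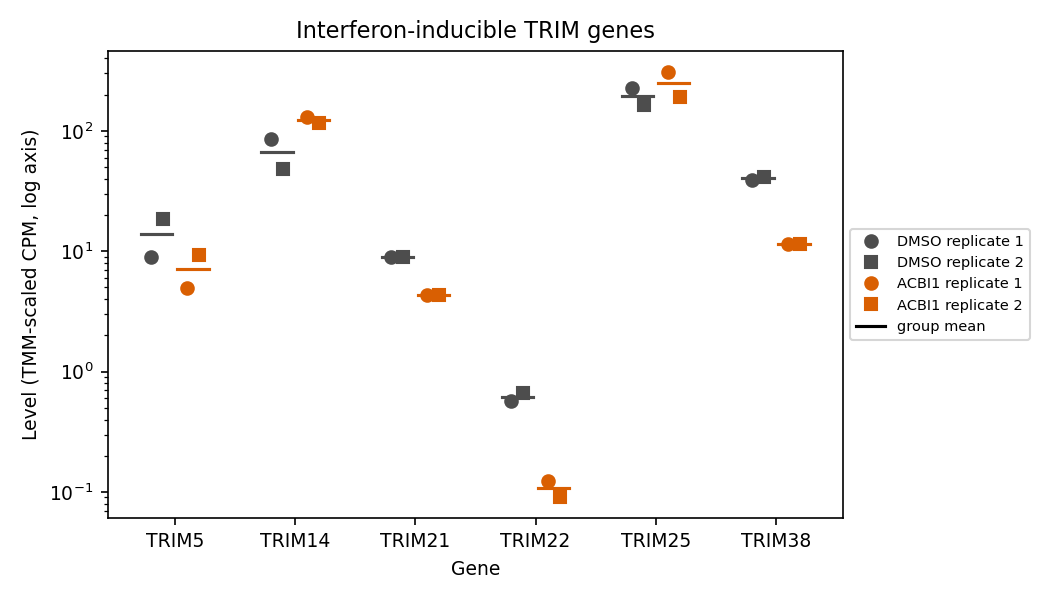
Level in each library (y axis, TMM-scaled CPM on a log axis) of the 6 interferon-inducible TRIM genes (x axis), grey for DMSO and orange for ACBI1, with circles for replicate 1, squares for replicate 2 and bars for group means. The ACBI1 points of TRIM21, TRIM22 and TRIM38 sit under both DMSO points, those of TRIM14 above both, and those of TRIM5 and TRIM25 overlap with DMSO.

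TRIM5, TRIM6, TRIM22 and TRIM34 lie side by side on the short arm of chromosome 11. The fitted changes were negative for TRIM5 and TRIM22 and positive for TRIM6, but only that of TRIM22 was called, and TRIM34 was not tested. TRIM6, which builds free ubiquitin chains in interferon signalling, was at 1.63 and 3.98 CPM with DMSO and at 5.08 and 5.93 CPM with ACBI1, which do not overlap. TRIM6 missed the threshold with a log2 change of 0.97 (SE 0.46, edgeR adjusted p 0.192). The change was 1.75 and called without DMSO replicate 2 (adjusted p 0.0214) and 0.47 without DMSO replicate 1; the fit without a filter also called it (adjusted p 0.0460, and up to 0.191 over the same 4 alternatives). TRIM34 had 1 count in DMSO replicate 1 and 0 elsewhere. The read-through gene TRIM6-TRIM34 overlaps 29.3% of the exonic length of TRIM6, and reads shared by overlapping genes may have been dropped or split.

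Among the other 39 genes, TRIM16L and TRIM16 had the largest falls that passed the test. TRIM16L, a shortened copy of TRIM16, was at 95.4 and 136.9 CPM in the DMSO libraries and at 15.2 and 12.5 CPM in the ACBI1 libraries. This is a log2 change of -3.07 (SE 0.24, edgeR adjusted p 0.00231), or an 8.37-fold lower level. TRIM16, a B-box protein of the damage and stress response, was at 49.4 and 67.3 CPM with DMSO and at 15.65 and 13.8 CPM with ACBI1, a log2 change of -1.99 (SE 0.21, edgeR adjusted p 0.00459). Both genes held these calls with any 1 library left out. They lie apart on chromosome 17, at chr17:15627960-15684311 and chr17:18697998-18736118, yet 28.9% of the 50-base words in TRIM16 transcripts also occur in TRIM16L and 39.4% of those of TRIM16L in TRIM16. In addition, 28.7% of the exonic bases of TRIM16 also lie in exons of AC005324.3 or AC005324.5. Reads from the shared stretches may be assigned to either gene or dropped, so both values are uncertain and are not separate measurements.

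TRIM8, a ligase that promotes NF-kB signalling downstream of TNF and interleukin-1, was at 220.7 and 326.5 CPM with DMSO and at 113.1 and 103.8 CPM with ACBI1. All ACBI1 values were under all DMSO values. The log2 change was -1.34 (SE 0.23, edgeR adjusted p 0.0158), and the call was lost by a little without ACBI1 replicate 1 (adjusted p 0.0521) or ACBI1 replicate 2 (adjusted p 0.0554). Its divergent transcript TRIM8-DT, which is no member, had 159 and 155 counts against 91 and 55, a log2 change of -1.14 that was not called (edgeR adjusted p 0.0676). Another annotated gene, AL391121.1, overlaps 14.1% of the exonic length of TRIM8, and the strand setting of the counting is not given in the sources used here, so the reads of such pairs cannot be told apart.

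TRIM56, a ligase linked to cytosolic DNA and RNA sensing, showed the smallest of the called changes. It was at 115.0 and 119.0 CPM with DMSO and at 72.1 and 75 CPM with ACBI1, with no overlap and little spread. The log2 change of -0.67 (SE 0.15, edgeR adjusted p 0.0313) was not called without DMSO replicate 2 (adjusted p 0.0770), ACBI1 replicate 1 (0.188) or ACBI1 replicate 2 (0.134). No other gene overlaps its exons (chr7:101085439-101097967).

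TRIM9, a ligase best known from neurons, rose the most. Its counts were 67 and 37 with DMSO and 495 and 265 with ACBI1, or 0.823 and 0.514 CPM against 5.53 and 4.04 CPM. The groups were well apart, with a log2 change of 2.83 (SE 0.40, edgeR adjusted p 0.00920), that is 7.13-fold higher. The call held with any 1 library left out. Per length its level was still low with ACBI1, at 0.535 ± 0.118 CPM per kb of exon (SD, n = 2).

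TRIM47 and TRIM65 are direct neighbours on chromosome 17, on the same strand with 1759 bases between the genes, and both rose, by 2.20-fold and 2.16-fold. TRIM47 was at 38.8 and 34.9 CPM with DMSO and at 77.9 and 84.5 CPM with ACBI1, a log2 change of 1.14 (SE 0.16, edgeR adjusted p 0.00855). TRIM65, which attaches ubiquitin to the RNA sensor MDA5, was at 71.1 and 66.1 CPM with DMSO and at 134.5 and 161.3 CPM with ACBI1, a log2 change of 1.11 (SE 0.17, edgeR adjusted p 0.0116). Neither gene had an ACBI1 value near its DMSO values, and both calls held with any 1 library left out. Another annotated gene, AC087289.5, overlaps 51.5% of the exonic length of TRIM47 (chr17:75874161-75878575), so the counts of TRIM47 are uncertain. No gene overlaps the exons of TRIM65 (chr17:75880335-75897003).

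TRIM66, a chromatin reader related to TRIM24 and TRIM28 that lacks their RING, was at 7.95 and 8.05 CPM with DMSO and at 18.6 and 13.1 CPM with ACBI1. Its log2 change of 0.99 (SE 0.25) had the largest adjusted p of the 11 calls, 0.0440 in edgeR's test. The call was lost without DMSO replicate 1 (adjusted p 0.0524), DMSO replicate 2 (0.0690), ACBI1 replicate 1 (0.243) or ACBI1 replicate 2 (0.0549).

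**Figure D3:**
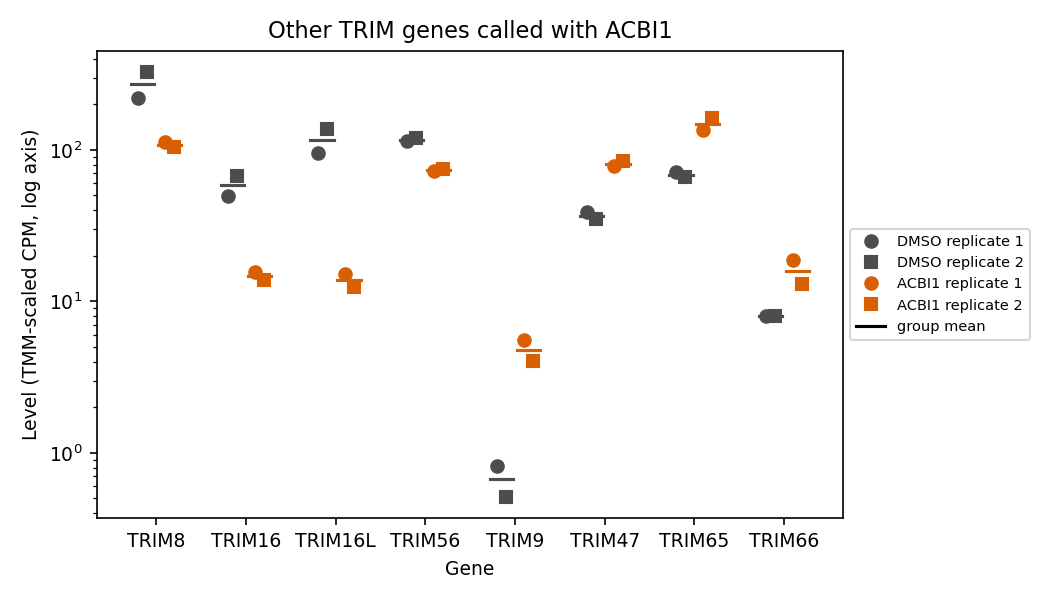
Level in each library (y axis, TMM-scaled CPM on a log axis) of the 8 called TRIM genes outside the inducible set (x axis), grey for DMSO and orange for ACBI1, with circles for replicate 1, squares for replicate 2 and bars for group means. TRIM8, TRIM16, TRIM16L and TRIM56 have both ACBI1 points under both DMSO points, and TRIM9, TRIM47, TRIM65 and TRIM66 have both above.

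Grouped by C-terminal domain, 4 of the classes held a called gene and 3 held none. TRIM14, TRIM16, TRIM16L and TRIM44 were placed in no class. Of these 4 genes, 2 fell (TRIM16L and TRIM16, 50%, against 10.6% of all genes). The PRY-SPRY class is named for a domain that binds protein partners such as viral capsids or antibodies. It held 20 reported genes, and genes outside the class may carry the domain too. Of the 20, 2 rose (TRIM47 and TRIM65) and 3 fell (TRIM22, TRIM38 and TRIM21), with a median log2 change of -0.18. These 25% called compare with 17.4% of all genes. Of 4 genes with a microtubule-binding COS box, TRIM9 rose (25%, against 6.75% of all genes). The muscle ligase TRIM54 of the same class had 199 and 272 counts with DMSO and 65 and 4 with ACBI1. TRIM54 missed the threshold with a log2 change of -2.94 (SE 0.91, edgeR adjusted p 0.0761). The change moved to -5.62 without ACBI1 replicate 1 (called, adjusted p 0.00735) and to -3.21 without DMSO replicate 1 (called, adjusted p 0.00885), and was called by the fit without a filter among these 4 alternatives (adjusted p from 1.456e-09 to 0.126). Of 4 genes in the class with a PHD finger and bromodomain, TRIM66 rose (25%, against 6.75%). TRIM8 and TRIM56 were the 2 that fell among 5 genes with no known C-terminal domain (40%, against 10.6% of all genes). The 3 genes with NHL repeats (TRIM2, TRIM3 and TRIM32) and the 2 membrane-anchored ones (TRIM13 and TRIM59) were not called by edgeR. Nor were TRIM23, TRIM37 and TRIM45, each with an architecture of its own. None of these 8 was thus called, against 17.4% of all genes. In edgeR's test 1 of the 8 had an unadjusted p under 0.05 (TRIM23), as had 6490 of all 19159 genes tested.

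TRIM28, the corepressor that KRAB zinc finger proteins recruit to silence retroelements, was the most abundant member per length. It was at 508.6 and 420.4 CPM with DMSO and at 654.6 and 588.6 CPM with ACBI1, or 115 ± 15.5 against 154 ± 11.6 CPM per kb of exon (SD, n = 2). Both ACBI1 libraries were above both DMSO libraries, but the log2 change of 0.42 (SE 0.19) was not called (edgeR adjusted p 0.173). Next in the order of mean level per length over all 4 libraries came TRIM65 (27.4 CPM per kb), TRIM25 (23.4), TRIM44 (21.4) and TRIM8 (20.0). This order differed within the groups. TRIM16L, at 26.8 ± 6.79 CPM per kb, came after TRIM8 in DMSO, and with ACBI1 TRIM47 (25.8 ± 1.47) and TRIM14 (22.45 ± 1.93) were above TRIM8. In DMSO alone TRIM8 stood at 28.7 ± 7.84 CPM per kb and TRIM65 at 17.35 ± 0.902, and with ACBI1 at 11.4 ± 0.690 and 37.4 ± 4.80 (SD, n = 2), so that their order changed places between the groups. TRIM44, a B-box protein with a zinc finger of deubiquitinases, was at 279 and 203 CPM with DMSO and at 353 and 283 CPM with ACBI1, and missed the threshold with a log2 change of 0.40 (SE 0.22, edgeR adjusted p 0.262). That change was 0.65 without DMSO replicate 1, 0.19 without DMSO replicate 2 and 0.24 without ACBI1 replicate 1, and it was called in none of these fits. TRIM24 and TRIM33, which share the PHD finger and bromodomain of TRIM28, had log2 changes of -0.30 and -0.03 and were not called (adjusted p 0.268 and 0.899).

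The 34 TRIM genes that were not called included 27 with a log2 change under 0.5 in size and 7 at or above it. The 7 were TRIM5, TRIM6, TRIM14 and TRIM54, given above, with TRIM15, TRIM23 and TRIM61. TRIM7, with the third smallest adjusted p above the threshold (0.119 in edgeR's test), was at 19.1 and 20.5 CPM with DMSO and at 25.1 and 30.6 CPM with ACBI1, a log2 change of 0.49 (SE 0.18). The standard errors of the 45 had a median of 0.22, so changes of this size were often not detectable with 2 libraries a group. TRIM15 met the count minimum by the narrowest margin, with 17 and 5 counts with DMSO and 11 and 1 with ACBI1. Just under it were TRIM50 (2, 6, 5 and 2 counts in the same order), TRIM72 (4, 5, 6 and 2) and TRIM74 (4, 1, 6 and 5). Of the 45, 41 had 10 or more counts in all 4 libraries. TRIM22 and TRIM54 reached 10 counts in both DMSO libraries and 1 ACBI1 library, TRIM61 in both ACBI1 libraries and 1 DMSO library, and TRIM15 in 1 library of each group.

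Genes of the family that carry other names fall outside the symbol rule. PML, the scaffold of PML nuclear bodies and itself induced by interferon, was at 135.1 and 157.7 CPM with DMSO and at 42.8 and 60.9 CPM with ACBI1. It fell by 1.498 on the log2 scale (SE 0.22, edgeR adjusted p 0.0104). MEFV, the inflammasome sensor pyrin, had 50 and 34 counts with DMSO and 1 and 3 with ACBI1, and was also called lower (edgeR adjusted p 0.0132). It passed the filter through the DMSO libraries alone, so that a gene this low with ACBI1 had to differ, and the call supports nothing further. MID1 and MID2, microtubule-bound ligases with a COS box, had log2 changes of -0.59 and -0.44 and were not called (edgeR adjusted p 0.112 and 0.127).

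The genes that TRIM proteins work with were taken as lists written with earlier results of these data known. Of 10 genes of interferon signalling, which drives the inducible TRIM genes, none rose and 3 fell (30.0% called, against 17.4% of all genes), with a median log2 change of -0.41. They were the transcription factors IRF1 (172 and 124 CPM with DMSO, 34.1 and 28.7 with ACBI1, edgeR adjusted p 0.00396), STAT2 (43.1 and 66.3 against 12.3 and 19.6, adjusted p 0.0164) and IRF7 (11.6 and 8.83 against 5.08 and 3.26, adjusted p 0.0425). With DMSO replicate 1 or either ACBI1 library left out, 2 of the 10 were called.

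A further list held 12 genes for RNA sensing and the kinase TAK1, the pathway in which TRIM25, TRIM65, TRIM14 and TRIM38 act. Of these, 1 rose and 2 fell (25% called, against 17.4% of all genes), with a median log2 change of -0.19. TRAF3, a signalling ligase below MAVS, rose by 0.78 (edgeR adjusted p 0.0346). DHX58, the sensor LGP2, was at 2.73 and 2.45 CPM against 0.514 and 0.336 CPM, a log2 change of -2.59 (edgeR adjusted p 0.0109), and MAVS had a log2 change of -0.61 (edgeR adjusted p 0.0440). Leaving out DMSO replicate 2, ACBI1 replicate 1 or ACBI1 replicate 2 left 1 call in this list. Of 12 E1 and E2 enzymes, which hand ubiquitin to RING ligases, UBE2D4 rose (log2 change 1.26, edgeR adjusted p 0.0134) and UBE2E3 fell (log2 change -0.67, edgeR adjusted p 0.0464), and the median was -0.03. The 16.7% called in it are near the 17.4% of all genes. This list kept 1 call without DMSO replicate 2 or ACBI1 replicate 2 and 0 without ACBI1 replicate 1. Of 9 genes that work with TRIM28 in silencing, edgeR called 0, against 17.4% of all genes, and DESeq2 called 0, against 13.6%. In edgeR's test 1 of the 9 had an unadjusted p under 0.05, as had 6490 of all 19159 genes tested. The median log2 change of the 9 was 0.14.

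**Figure D4:**
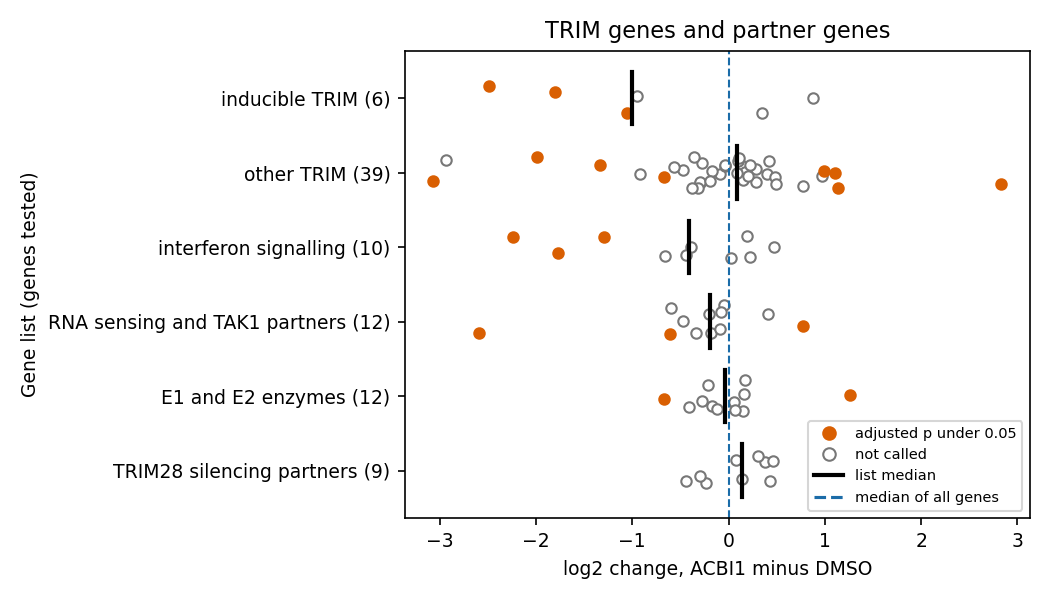
Fitted log2 change (ACBI1 minus DMSO) of each gene in the TRIM lists and the partner lists, with filled points for adjusted p under 0.05, a black bar at each list's median and a dashed line at the median of all genes; the vertical spread of points within a list carries no value. The inducible list has its median at -1.004 and the other TRIM genes at 0.09.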

How the data were processed

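RNA-seq was measured in 4 H1792 libraries, 2 with DMSO and 2 with ACBI1. The deposited files hold raw counts of reads per gene, made by the authors with TopHat2 2.1.1, HTSeq 0.11.0 and the genome hg38, per the submitters' processing notes; the annotation, strand setting and overlap mode are not given in the sources used here. The 5 closing lines that name no gene (13.89% to 15.36% of each library) were left out. Counts were fitted in edgeR 4.0.16 (R 4.3.3) with filterByExpr (minimum count 10), TMM scaling and the quasi-likelihood test on treatment alone, and adjusted by Benjamini-Hochberg over 19159 genes. The common coefficient of biological variation was 0.244. CPM are TMM-scaled, and the SD is over 2 libraries. Levels per kb, exon overlap and shared 50-base words used GENCODE 29 (GRCh38), and promoters came from RefSeq (GRCh38.p14). The fit was tested on simulated data.

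Members, lists and markers were chosen with earlier results of these data known. Named genes are the 6 inducible genes, each called member, the 5 highest per length, the 3 smallest adjusted p above the threshold, those nearest the count minimum, up to 4 called genes per partner list, the TRIM5 cluster, PML, MID1, MID2 and the degrader targets. Alternatives were DESeq2's size factors, library size only, no filter, DESeq2 1.42.0, a replicate block and leaving out each library.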

Additional observations from a re-analysis of the deposited data

How the results depend on the processing

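The 11 TRIM calls were shared by edgeR with DESeq2's size factors (11 called), with library size only (11), with no filter (15) and by DESeq2 (12). Without a filter 5 of the 6 inducible genes were called, against 16.8% of all genes in that fit. Leaving out 1 library gave 6 to 12 TRIM calls, 3 to 4 higher and 3 to 8 lower, and 1 to 4 inducible calls; TRIM16, TRIM16L, TRIM38, TRIM47, TRIM65 and TRIM9 were called each time. The inducible median then ran from -1.29 to -0.70 and that of the other 39 from -0.0625 to 0.053. The change of TRIM25 ran from -0.0365 (without ACBI1 replicate 1) to 0.648. In the same fits calls ran from 1 to 2 for RNA sensing and from 0 to 2 for the E1 and E2 enzymes, whose median ran from -0.0640 to 0.088, and the median of the TRIM28 partners from 0.10 to 0.23. With library size only, the medians were -0.11 for RNA sensing, 0.0563 for the E1 and E2 enzymes (1 call) and 0.22 for the TRIM28 partners. Over all genes 3331 were called, against 5518 with no filter, 7909 with the block and 1379 to 4292 with a library left out. Replicate numbers are shared by the groups, but the labels do not say that they mark a batch, and with 2 pairs the correlation of deviations (0.518) does not settle it. With the replicate block 22 of the 45 TRIM genes were called, 10 higher and 12 lower, while 41.3% of all genes were called. The 22 were the 11 with TRIM4, TRIM5, TRIM6, TRIM7, TRIM13, TRIM14, TRIM23, TRIM28, TRIM44, TRIM54 and TRIM69, and 5 of the 6 inducible genes were among them. Also called with the block were 6 of 10 interferon signalling genes and 5 of 12 of RNA sensing. So were 3 of 12 E1 and E2 enzymes and 4 of 9 TRIM28 partners. Changes near the median standard error of 0.22 are not detectable with 2 libraries a group.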

Other observations

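None of the neighbouring genes named here was called higher with TRIM47 and TRIM65. WBP2, on one side, was at 145.0 ± 4.49 CPM with DMSO and 77.4 ± 1.79 with ACBI1 (SD, n = 2), called lower by edgeR (adjusted p 0.0145), and UNC13D beyond it had a log2 change of -3.43 (edgeR adjusted p 0.00290). On the other side MRPL38 and FBF1 were not called (edgeR adjusted p 0.530 and 0.258). These neighbours were chosen after the values of TRIM47 and TRIM65 were seen.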
